A study of Mus musculus with 16 samples.

Results

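The genes followed here, in mouse iPSC lines, were 10 genes of the epithelial to mesenchymal transition, 4 that mark epithelia (Cdh1, Epcam, Ocln and Cldn4) and 6 that mark or drive the mesenchymal state (Cdh2, Vim, Snai1, Snai2, Zeb1 and Zeb2). They were taken by gene symbol, and all 10 were found among the 43984 genes of the histone table and the 55471 genes of the methylation table, each annotated as protein-coding in GENCODE. In epithelial cells E-cadherin and the tight junction proteins hold neighbouring cells together. In the transition to a mesenchymal cell the Snail and Zeb repressors bind E-box sequences at epithelial genes, N-cadherin takes the place of E-cadherin and vimentin filaments form. Reprogramming of a fibroblast runs the other way, through a mesenchymal to epithelial transition, whereas a tubule cell is epithelial from the outset.

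Lines PTC11 and PTC12 derive from proximal tubule cells and lines TTF1 and TTF4 from tail tip fibroblasts of adult littermates. All animals carried the SLC34a1-GCE, tdTomato, rtTAROSA (neo-in) and OKMS-250 transgenes and had been fed tamoxifen, and all lines were reprogrammed with doxycycline and then grown without it, so the comparison has no line free of the reprogramming cassette. In PTC the Cre recombinase depended on the SLC34a1 promoter of mature tubule cells, while TTF received Cre on an episomal plasmid, so the cell of origin and the route of Cre delivery cannot be told apart. Each line is 1 clone, and each assay but H3K27me3, whose PTC libraries are both of line PTC11, has 2 lines of each origin, which makes 0.33 the smallest two-sided p that an exact permutation test over lines could give. H3K4me3, which marks the starts of active genes, H3K36me3, which marks transcribed gene bodies, H3K27me3, which marks repressed genes, and CpG methylation were each measured in 4 libraries. No RNA level was analysed here.

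The libraries differed from one another in ways that the origin does not account for. H3K4me3 values were held by 15114 genes in PTC11 and 15368 in TTF4 but by 19990 in PTC12 and 19448 in TTF1. For H3K36me3 the median over genes was 1.60 RPKM (PTC11) and 1.18 (TTF1) but 3.88 in PTC12 and 4.01 in TTF4. The mean methylated fraction over all genes was 0.372 (PTC11), 0.482 (PTC12), 0.379 (TTF1) and 0.649 (TTF4). The labelled cell type was checked on 10 pluripotency genes, of which 9 had an H3K4me3 value in PTC11, PTC12 and TTF1 and 7 in TTF4. The defining genes Pou5f1, Nanog and Sox2 had one in every line. Esrrb had no H3K4me3 value in any line but an H3K36me3 value in every line. Zfp42 and Dppa5a lacked an H3K4me3 value in TTF4 alone. Their methylated fractions there were 0.803 and 0.771, against 0.209 and 0.312 in the highest other line. Pou5f1 and Nanog had no H3K36me3 value in TTF4. Slc34a1, the transporter that defines the proximal tubule, had no H3K4me3 value in any line, nor had Cubn, Slc5a2 and Slc22a6. Of the 6 proximal tubule genes listed, Lrp2 had one in every line, at 4.01 RPKM (PTC11), 5.97 (PTC12), 7.15 (TTF1) and 4.16 (TTF4). Aqp1 had an H3K4me3 value in PTC12 only. H3K36me3 values were held by all 6 tubule genes in PTC11 and TTF1, by 5 in PTC12 and by 4 in TTF4. For Slc34a1 the H3K36me3 value was 1.64 RPKM (PTC11), 2.91 (TTF1, percentile 99.4 of the line) and 0.840 (TTF4), with none in PTC12.

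H3K4me3 was present at the start sites of both groups of genes. The values are RPKM minus the RPKM of the input, averaged over the peaks at the start site, so that the value is missing where no peak was kept. Cdh1, which encodes E-cadherin (8:106603351-106670246 on mm10, plus strand), had 4.54 RPKM (PTC11), 5.26 (PTC12), 6.26 (TTF1) and 4.11 (TTF4). TTF1 was the highest and TTF4 the lowest line, so the PTC lines lay between the TTF lines. Epcam, which encodes an adhesion molecule of epithelial and pluripotent cells, had 3.22 RPKM (PTC11), 5.25 (PTC12), 5.42 (TTF1) and 3.12 (TTF4). Ocln, which encodes the tight junction protein occludin, had 3.63 RPKM (PTC11), 6.88 (PTC12), 6.54 (TTF1) and 4.02 (TTF4). At both genes PTC12 and TTF1 were high and PTC11 and TTF4 were low, which is also how the lines stood in their number of genes with a value. Cldn4, which encodes the tight junction protein claudin 4, had 4.15 RPKM in PTC11, 4.49 in PTC12 and 5.44 in TTF1 and no retained peak in TTF4.

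Of the mesenchymal genes, the repressor gene Zeb1 had the widest range, with 3.57 RPKM of H3K4me3 (PTC11), 5.92 (PTC12), 7.19 (TTF1) and 3.19 (TTF4). Snai1, which encodes Snail, had 4.15 RPKM (PTC11), 3.43 (PTC12), 5.11 (TTF1) and 2.09 (TTF4). The TTF lines were the highest and the lowest at both genes. Snai2, which encodes Slug, stayed between 3.01 RPKM in TTF4 and 4.09 in TTF1. The other 3 had no retained peak in PTC11 and a value in the remaining lines. Cdh2, which encodes N-cadherin, had 4.41 RPKM (PTC12), 4.52 (TTF1) and 3.40 (TTF4). Vim, which encodes the intermediate filament protein vimentin, had 3.34 RPKM (PTC12), 4.88 (TTF1) and 3.42 (TTF4). Zeb2, which encodes the second Zeb repressor, had 3.96 RPKM (PTC12), 4.71 (TTF1) and 3.62 (TTF4).

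**Figure D1:**
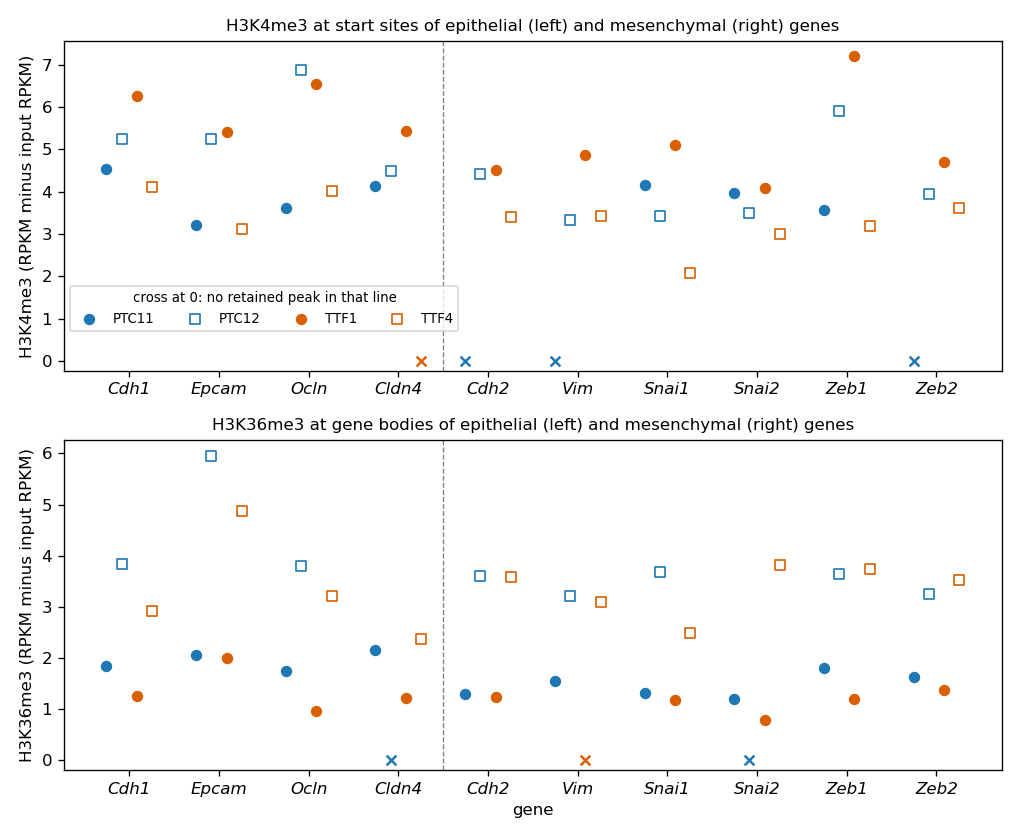
H3K4me3 at the start site (top) and H3K36me3 over the gene body (bottom) of each gene, in RPKM minus input RPKM on linear axes, with 1 point per line, blue for PTC and orange for TTF, and a cross at 0 where no peak was retained. The crosses of H3K4me3 fall on Cldn4 in TTF4 and on Cdh2, Vim and Zeb2 in PTC11, and at no gene with a value in every line do both TTF lines lie above, or both below, the PTC lines.

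The deposited values are not split by strand, so marks at overlapping genes cannot be assigned to one of them. The start of Zeb1 lies within Gm10125 on the opposite strand, and the body of Zeb1 also holds Gm16147 and Gm22709. Zeb2 overlaps its antisense gene Zeb2os together with Mir5129, Gm27761, Gm27404 and Gm27645, and Cdh2 overlaps Gm15485. No other gene shared the values of any of the 10 in every line.

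The absent H3K4me3 peaks fell on different groups in different lines. Among all genes with an H3K4me3 value in PTC12, TTF1 and TTF4, 8.01% had none in PTC11, against 3 of the 6 mesenchymal genes and 0 of the 3 epithelial genes that met the same condition. The mean level of a gene in PTC12, TTF1 and TTF4 had a median over the 1193 genes that lacked a peak in PTC11 of 3.39 RPKM, and over the 13709 genes that had one of 4.96 RPKM. Among all genes with a value in PTC11, PTC12 and TTF1, 7.52% had none in TTF4, against 1 of the 4 epithelial genes, Cldn4, and 0 of the 3 mesenchymal genes. In wider lists of genes of the transition, 2 of 27 mesenchymal genes (Prrx1 and Loxl2) and 2 of 30 epithelial genes (Krt8 and Rab25) lacked a value in PTC11 alone, which is close to the share of all genes. Of 8 listed fibroblast genes 1 had an H3K4me3 value in PTC11 (Thy1), 4 in PTC12 as well as TTF1, and 3 in TTF4. Col1a1 and Col1a2, which encode type I collagen, lacked a value in PTC11 alone, and Col3a1, Postn, Lum and Dcn had none in any line. The iPSC were kept on fibroblast feeder cells before differentiation, and the part of such cells in these values was not tested.

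No difference in H3K4me3 between TTF and PTC lines passed the test at the 6 genes with a value in every line. The limma test on log2(RPKM + 1), fitted to all 13709 such genes, called 0 of the 6 (0 also at an unadjusted p under 0.05), and 0.481% of all genes were called in either direction. The TTF minus PTC difference ran from -0.14 ± 0.33 (log2, SE) at Snai1 to 0.06 ± 0.46 at Zeb1, each with a Benjamini-Hochberg adjusted p of 1. The median difference was 0.03 over the epithelial and -0.07 over the mesenchymal genes tested, beside 0.04 over all genes. None of the 6 had both TTF lines above or both below the PTC lines, which was the case for 5.04% and 3.17% of all genes, respectively.

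H3K36me3 over the gene bodies was high in 1 line and low in the other of each origin. Epcam had 2.06 RPKM (PTC11), 5.96 (PTC12), 1.99 (TTF1) and 4.88 (TTF4), the highest H3K36me3 of the 10 genes in every line but PTC11. Cdh1 had 1.85 RPKM (PTC11), 3.84 (PTC12), 1.26 (TTF1) and 2.93 (TTF4). Zeb1 had 1.81 RPKM (PTC11), 3.65 (PTC12), 1.20 (TTF1) and 3.74 (TTF4). In each of these genes PTC12 and TTF4 were high and PTC11 and TTF1 low, as were the medians of all genes. Ocln, Cdh2, Snai1 and Zeb2 had the same order of high and low lines. Cldn4 and Snai2 had no value in PTC12, and Vim had none in TTF1. Cldn4 had an H3K36me3 value in TTF4, where it had no H3K4me3 value, at 2.38 RPKM against 2.16 in PTC11 and 1.22 in TTF1. Among all genes with a value in the line, it stood at percentile 12.9 in TTF4 but at 86.9 in PTC11 and 54.9 in TTF1.

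The limma test called 0 of the 7 genes with H3K36me3 in every line (0 at an unadjusted p under 0.05), and 0.112% of all 17039 genes. The differences ran from -0.34 ± 0.94 (log2, SE) at Ocln to -0.03 ± 0.94 at Cdh2, adjusted p = 1 for each. The values were not scaled between libraries for this test, so its standard errors include the differences in level between whole libraries. No gene of the 7 had both TTF lines above or below both PTC lines, beside 0.452% of all genes above and 3.05% below. H3K27me3 had no retained peak at any of the 10 genes in any library. Only 192 genes of the table had an H3K27me3 value in 1 library or more, so that little can be read from its absence. Both PTC libraries of H3K27me3 were from line PTC11 and no test was made.

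CpG methylation was low around the start sites of both groups. The values are the fraction of methylated CpGs within 1 kb of the start, and the read coverage behind them is unknown. The start sites were rich in CpGs, from 62 within 1 kb of the Cldn4 start to 202 at Zeb1, beside a median of 25 over all genes of the table. In PTC11, PTC12 and TTF1 no gene of the 10 exceeded 0.244, while the median over all genes was 0.385 (PTC11), 0.539 (PTC12) and 0.374 (TTF1). In TTF4, where the median over all genes was 0.770, the 10 genes ran from 0.0358 at Vim to 0.678 at Cldn4.

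Cldn4 (5:134945119-134946934, minus strand) departed most from that level. Its fraction was 0 (PTC11), 0.0134 (PTC12), 0.0462 (TTF1) and 0.678 (TTF4). TTF4 exceeded the highest of the other lines by 0.632, and 99.1% of all genes had a smaller gap. The RefSeq promoter of Cldn4, 250 bases before the start (GRCm38.p6, 5:134946935-134947184, minus strand), is shown with its 7 CpGs in capitals because it lies within the window of that measurement, beside the promoters of Snai1 (2:167537945-167538194, plus strand, 27 CpGs), the next highest gene in TTF4, and Vim (2:13574061-13574310, plus strand, 8 CpGs), the lowest. The RefSeq start of Vim lies 384 bases downstream of the start in the deposited table, so that its stretch follows that start, within the window, while the starts of Cldn4 and Snai1 are the same in both.
Cldn4: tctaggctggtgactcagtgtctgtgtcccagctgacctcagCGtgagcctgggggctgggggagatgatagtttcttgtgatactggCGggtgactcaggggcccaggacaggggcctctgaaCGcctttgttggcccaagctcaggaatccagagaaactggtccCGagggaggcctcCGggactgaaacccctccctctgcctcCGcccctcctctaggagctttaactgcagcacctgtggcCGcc
Snai1: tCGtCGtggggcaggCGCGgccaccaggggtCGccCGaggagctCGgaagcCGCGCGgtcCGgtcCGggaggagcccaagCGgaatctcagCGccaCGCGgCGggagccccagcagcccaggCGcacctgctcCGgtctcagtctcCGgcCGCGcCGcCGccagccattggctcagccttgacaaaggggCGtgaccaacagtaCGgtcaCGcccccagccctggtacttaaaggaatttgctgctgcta
Vim: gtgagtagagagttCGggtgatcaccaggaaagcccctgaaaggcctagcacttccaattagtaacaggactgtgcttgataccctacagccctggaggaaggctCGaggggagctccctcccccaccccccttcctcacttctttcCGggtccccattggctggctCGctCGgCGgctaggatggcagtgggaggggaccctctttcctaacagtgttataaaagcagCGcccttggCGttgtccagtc

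Snai1 had a fraction of 0.109 (PTC11), 0.176 (PTC12), 0.171 (TTF1) and 0.445 (TTF4). In H3K4me3 TTF4 was its lowest line, as it was at Cdh1, Epcam, Snai2 and Zeb1. Vim had 0.0415 (PTC11), 0.134 (PTC12), 0.0268 (TTF1) and 0.0358 (TTF4). Zeb2 had 0.244 (PTC11), 0.204 (PTC12), 0.177 (TTF1) and 0.0794 (TTF4). Vim and Zeb2 thus did not follow the high methylation of TTF4, and Zeb2 was lowest there. The fraction was highest in TTF4 at all 4 epithelial genes and at 3 of the 6 mesenchymal genes (Snai1, Snai2 and Zeb1), beside 75.4% of all genes.

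The other epithelial genes were higher in TTF4 by less. Cdh1 had 0.0440 (PTC11), 0.0686 (PTC12), 0.136 (TTF1) and 0.244 (TTF4). Epcam had 0.143 (PTC11), 0.186 (PTC12), 0.0981 (TTF1) and 0.312 (TTF4). Ocln had 0.162 (PTC11), 0.118 (PTC12), 0.0401 (TTF1) and 0.221 (TTF4). Their gaps in TTF4 over the highest other line, from 0.0581 at Ocln to 0.127 at Epcam, were larger than those of 37.8% to 54.1% of all genes. Of the remaining mesenchymal genes, Snai2 ran from 0.0288 (PTC11) through 0.13 (PTC12) and 0.177 (TTF1) to 0.294 (TTF4). Zeb1 lay between 0.0781 and 0.123 and Cdh2 between 0.0207 and 0.0735 in every line.

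**Figure D2:**
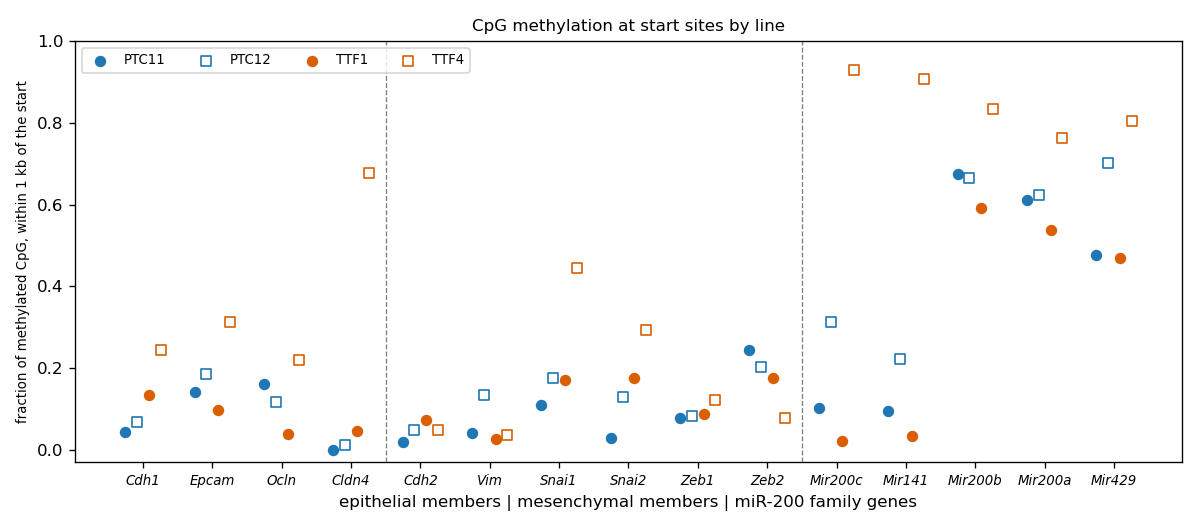
Fraction of methylated CpG within 1 kb of the start of each gene, with 1 point per line, blue for PTC and orange for TTF. Cldn4 at 0.678 and Mir200c and Mir141 above 0.9 in TTF4 stand above the other lines, while Vim and Zeb2 in TTF4 do not.

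After the mean of each line was subtracted, limma called 0 of the 10 genes between TTF and PTC (0 at an unadjusted p under 0.05), and 0.00395% of all 50657 genes. The largest difference among the 10 was that of Cldn4, 0.27 ± 0.14 (fraction, SE, adjusted p = 1.00), and the TTF mean before centring was 0.362 ± 0.447 (SD, n = 2) against 0.00668 ± 0.00945 in PTC, so that the spread between the TTF lines exceeded the difference of the means. At the other end Zeb2 was lower in TTF by 0.18 ± 0.14 (adjusted p = 1.00). The median difference was 0.00 over the epithelial and -0.06 over the mesenchymal genes, beside -0.01 over all genes. On the deposited fraction the TTF lines were both above the PTC lines at Cdh1, Cldn4, Cdh2, Snai2 and Zeb1, that is 5 of 10 genes beside 20.5% of all genes, and below them at Vim and Zeb2, 2 of 10 beside 3.36%. On the centred fraction that was tested, both TTF lines were above only at Cldn4 and Snai1 and both below only at Vim. The share of all genes on that scale was not counted. Without line TTF1, where TTF4 stands alone and is assumed to vary like the PTC lines, Cldn4 was called, with a difference of 0.45, in a setting that called 2.01% of all genes.

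**Figure D3:**
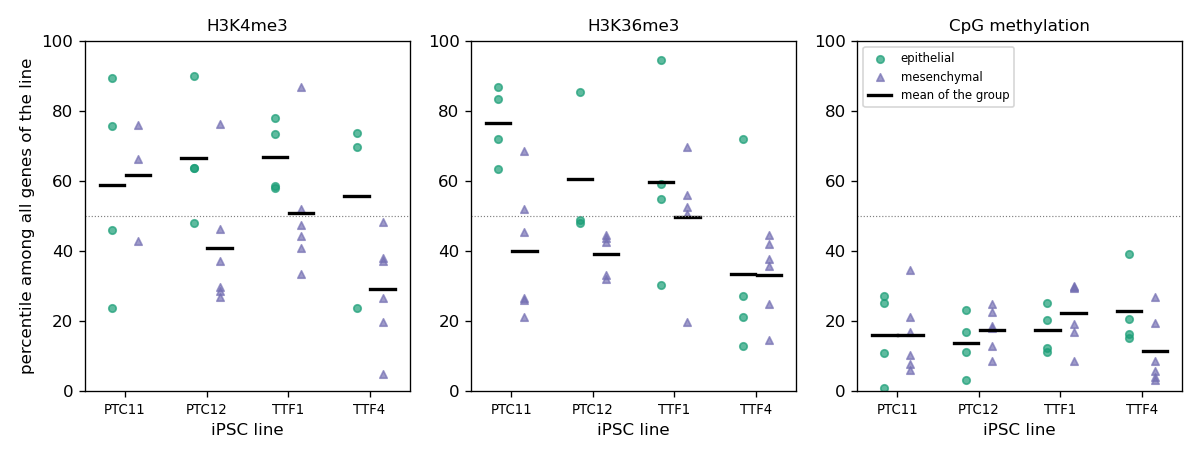
Percentile of each epithelial (circles) and mesenchymal (triangles) gene among all genes with a value in the same line, for the 3 assays with values, with the mean of each group as a bar and the 50th percentile dotted. The mean H3K4me3 percentile of the epithelial genes lies above that of the mesenchymal genes in PTC12, TTF1 and TTF4 and below it in PTC11, and all methylation percentiles lie under 40.

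Epithelial and mesenchymal genes were then set against each other within each line. Mean H3K4me3 of the epithelial minus that of the mesenchymal genes, on log2(RPKM + 1), was -0.01 (PTC11), 0.35 (PTC12), 0.20 (TTF1) and 0.21 (TTF4), with a mean of 0.19 ± 0.15 (SD, n = 4 lines). The value in PTC11 rests on the 3 mesenchymal genes with a peak. In percentiles of the line, the epithelial genes averaged 58.8 (PTC11), 66.5 (PTC12), 67.0 (TTF1) and 55.8 (TTF4), and the mesenchymal genes 61.7, 40.8, 50.8 and 29.1 in the same order. Counting genes without a peak as 0 turned the difference in TTF4 to -0.35, since Cldn4 then counts as 0, and raised that in PTC11 to 1.14. The H3K4me3 percentiles of both groups overlapped in every line.

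The same contrast of H3K36me3 was 0.26 (PTC11), 0.28 (PTC12), 0.12 (TTF1) and -0.03 (TTF4), with a mean of 0.16 ± 0.15. In PTC12 the 3 epithelial genes with an H3K36me3 value all lay above the 5 mesenchymal genes, and in the other lines the groups overlapped. In methylation the contrast was 0.00 (PTC11), -0.03 (PTC12), -0.04 (TTF1) and 0.19 (TTF4), with a mean of 0.03 ± 0.11 that became -0.02 without TTF4. The 2 TTF lines stood at opposite ends of the methylation contrast, with the PTC lines between them. TTF4, where the mean over all genes was also the highest, at 0.649, is thus the line with the highest epithelial fraction. It was 0.364 on average against 0.171 for the mesenchymal genes, with medians of 0.278 and 0.101. In percentiles of the line, the epithelial genes had a median of 18.5 in TTF4 against 17.9 (PTC11), 14.0 (PTC12) and 16.4 (TTF1). That of the mesenchymal genes was 7.16 in TTF4 against 13.5, 18.2 and 24.2.

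Epithelial genes are known targets of the Snail and Zeb repressors, which bind the E-box CACCTG (read on the opposite strand as CAGGTG). The promoter of Epcam (GRCm38.p6, 17:87635729-87635978, plus strand), one of the 2 epithelial genes with a single start site and a sequence at hand, is shown with both copies in capitals, the first starting 187 and the second 19 bases before the start.
Epcam: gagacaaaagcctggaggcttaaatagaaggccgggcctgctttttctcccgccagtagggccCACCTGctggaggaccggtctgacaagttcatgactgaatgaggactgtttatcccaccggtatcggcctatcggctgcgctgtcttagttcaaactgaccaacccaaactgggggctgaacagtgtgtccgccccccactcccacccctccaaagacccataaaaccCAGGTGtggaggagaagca
The Cldn4 promoter shown above holds 1 copy, 14 bases before the start, and that of Snai1 holds 1, 126 bases before it. Of 2 Ocln promoters, 1 holds the motif in 2 copies and the other in none, and it is in neither the Vim promoter nor any of 4 Zeb2 promoters. The motif is found in 17.2% of all 32851 promoters of the same length. Of the 10 genes, 6 had a sequence in that table, and no measurement of repressor binding was analysed here.

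The miR-200 family, whose microRNAs repress Zeb1 and Zeb2 and are in turn repressed by them, lies in 2 clusters, Mir200c and Mir141 on chromosome 6 and Mir200b, Mir200a and Mir429 on chromosome 4. The mature 3p forms (RefSeq, GRCm38.p6) are shown with the seed in capitals, since it sets the targets. Mir200b, Mir200c and Mir429 share 1 seed, and Mir200a and Mir141 share another.
mmu-miR-200b-3p: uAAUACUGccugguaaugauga
mmu-miR-200c-3p: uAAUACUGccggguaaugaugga
mmu-miR-429-3p: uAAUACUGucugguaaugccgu
mmu-miR-200a-3p: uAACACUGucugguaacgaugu
mmu-miR-141-3p: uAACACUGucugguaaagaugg

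The chromosome 6 cluster differed between the lines as Cldn4 did. The fraction at Mir200c was 0.102 (PTC11), 0.313 (PTC12), 0.0224 (TTF1) and 0.931 (TTF4), and at Mir141, whose start is 405 bases away and whose window therefore overlaps, it was 0.0954, 0.223, 0.0339 and 0.908 in the same order. H3K4me3 at Mir200c was 2.82 RPKM in PTC11, 4.28 in PTC12 and 4.22 in TTF1, and at Mir141 it was 3.34, 4.38 and 3.59. Neither had a retained H3K4me3 peak in TTF4. At the annotated starts of the chromosome 4 cluster, in contrast, no line had an H3K4me3 value. The fractions there lay between 0.469 and 0.834 in all lines, the highest again in TTF4. The starts of both clusters are those of the annotated microRNA genes. Whether the transcripts that hold the microRNAs start there was not examined, so these values need not describe their promoters. limma called 0 of the 5 genes in methylation (0 at an unadjusted p under 0.05), and without TTF1, where 2.01% of all genes were called, it called Mir200c and Mir141, whose windows overlap so that they are not separate measurements.

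Further genes of both kinds were described by count. In methylation 7 of 35 listed epithelial genes reached 0.5 in TTF4 and stayed below it in the other lines, beside 11.5% of all genes and 2 of 30 listed mesenchymal genes with a value in every line (Tcf4 and Sparc). The same was found at 3 of 8 fibroblast genes and at 2 of 10 pluripotency genes (Zfp42 and Dppa5a). The 7 were Cldn3, Cldn7, Tjp3, Marveld2, Marveld3, Rab25 and Ap1m2, of which all but Rab25 and Ap1m2, which act in membrane traffic, encode tight junction proteins. Cldn3, which lies 39.28 kb from Cldn4, had a fraction of 0.0316 (PTC11), 0.137 (PTC12), 0.0250 (TTF1) and 0.693 (TTF4). Tjp3, which encodes the scaffold protein ZO-3, had 0.318, 0.126, 0.0799 and 0.813 in the same order. Of 31 listed epithelial genes with an H3K4me3 value in the other lines, 3 had none in TTF4 (Tjp3, Marveld3 and Ap1m2), beside 7.52% of all genes, 1 of 26 mesenchymal genes (Twist2) and 2 of 9 pluripotency genes (Zfp42 and Dppa5a). Cldn3 kept a value of 3.25 RPKM in TTF4. Of the 14824 genes with H3K4me3 in PTC11, PTC12 and TTF1, 11936 could be matched by identifier and symbol to a gene with a methylation value in every line. Among these, 71.7% of the 755 with no H3K4me3 value in TTF4 had a fraction of at least 0.5 in TTF4 and under 0.5 in the other lines, against 6.07% of the 11181 with one, a description chosen after the values were seen. Matched by Ensembl identifier alone, 13615 genes entered and the shares were 71.6% of 905 and 6.42% of 12710.

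**Figure D4:**
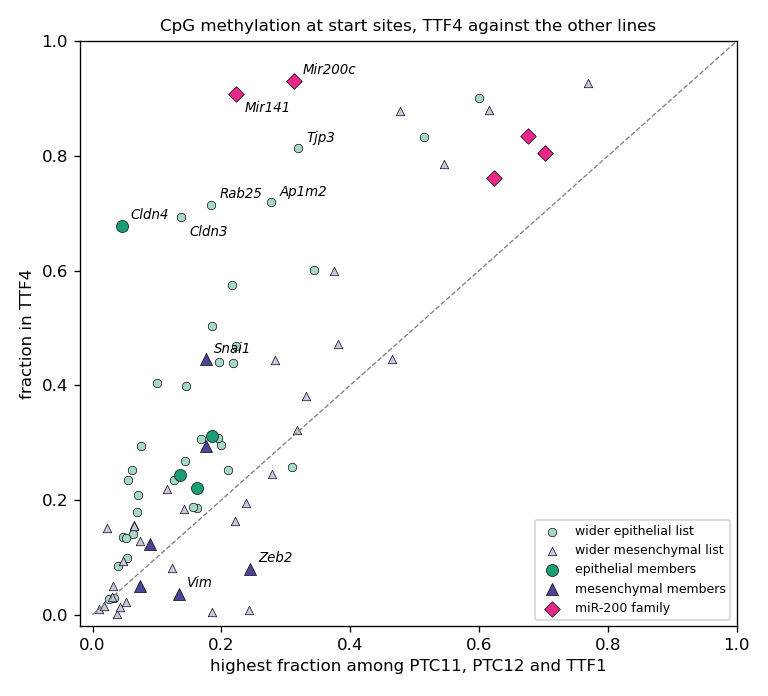
Fraction of methylated CpG in TTF4 against the highest fraction among PTC11, PTC12 and TTF1, 1 point per gene, with the line of equality dashed. Cldn4, Mir200c, Mir141, Cldn3, Rab25, Tjp3 and Ap1m2 lie far above the line, and Vim and Zeb2 lie below it.

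The limma test of methylation called 0 of the 35 epithelial and 0 of the 30 mesenchymal genes (0 and 0 at an unadjusted p under 0.05), with median differences of 0.00 and -0.05 beside -0.01 over all genes. Esrp1, a splicing regulator, had the lowest mean fraction of the list, with 0.00417 (PTC11), 0.0258 (PTC12), 0 (TTF1) and 0.0274 (TTF4), and Ctnnb1, which encodes beta-catenin, the highest, with 0.468, 0.600, 0.403 and 0.901. Ctnnb1 had no H3K4me3 value at its annotated start in any line but had H3K36me3 in every line. Whether its transcripts start there was not examined, so these fractions need not describe its promoter. Among the listed mesenchymal genes Smad3, a mediator of TGF-beta signalling, was lowest, with 0.00955, 0.0103, 0.0107 and 0.00892, and Fbn1, which encodes fibrillin, was highest, with 0.676, 0.769, 0.591 and 0.926. TTF4 was the highest line at 33 of 35 epithelial and at 17 of 30 mesenchymal genes, beside 75.4% of all genes. The median fraction in TTF4 was 0.294 over the epithelial and 0.160 over the mesenchymal list, beside 0.770 over all genes. In PTC12 it was 0.115 and 0.137, beside 0.539. In percentiles of the line, the epithelial list had a median of 19.5 in TTF4 against 19.3 (PTC11), 16.5 (PTC12) and 17.8 (TTF1). That of the mesenchymal list was 10.9 in TTF4 against 22.0, 18.6 and 20.2.

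The histone marks of these lists gave no call between TTF and PTC. In H3K4me3 limma called 0 of 28 epithelial and 0 of 25 mesenchymal genes (0 and 0 at an unadjusted p under 0.05), with median differences of -0.04 and 0.08 beside 0.04 over all genes. Among these, Ovol2, a repressor of Zeb1, was the 1 epithelial gene of 28 with both TTF lines below both PTC lines, beside 3.17% of all genes, at 4.38 RPKM (PTC11), 5.44 (PTC12), 4.17 (TTF1) and 3.55 (TTF4). Fn1, which encodes fibronectin, was the 1 mesenchymal gene of 25 with both TTF lines above, beside 5.04% of all genes, at 3.89, 4.16, 5.44 and 4.53 RPKM. Among the genes with a value in every line, the levels of H3K4me3 ran from a mean of 3.36 RPKM at Cldn3 to 5.70 at Ctnna1, the alpha-catenin gene, in the epithelial list and from 3.32 at Axl, a receptor kinase gene, to 7.07 at Tcf3, which encodes an E-box binding factor, in the mesenchymal list.

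In H3K36me3 limma called 0 of 29 epithelial and 0 of 30 mesenchymal genes (0 and 1 at an unadjusted p under 0.05), with median differences of -0.19 and -0.05 beside -0.14 over all genes. Among the genes with a value in every line, the lowest and highest mean levels were 1.47 RPKM at Krt8, a keratin gene, and 4.73 at Spint1, which encodes a protease inhibitor, among epithelial genes. They were 0.333 at Loxl2, a lysyl oxidase gene, and 5.10 at Foxc2, a forkhead factor gene, among mesenchymal genes. Loxl2, at 0.0984 RPKM (PTC11), 0.159 (PTC12), 0.726 (TTF1) and 0.346 (TTF4), was the gene past the unadjusted threshold, with an adjusted p of 1. None of the genes of either list had an H3K27me3 value.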

How the data were processed

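ChIP-seq of H3K4me3, H3K36me3 and H3K27me3 and nanopore sequencing for CpG methylation were done on 2 PTC and 2 TTF iPSC lines, except that both PTC libraries of H3K27me3 were of line PTC11, 16 samples in all. The authors aligned ChIP reads to mm10 with Bowtie2 2.1.0, called peaks against input with MACS2 2.0.10, and deposited RPKM minus input RPKM, averaged over the peaks at the start site (H3K4me3, H3K27me3) or gene body (H3K36me3), where calling per library decides which genes have a value. The authors aligned nanopore reads with minimap2 2.17-r941 and deposited the fraction of methylated CpGs averaged over windows of 300 bases within 1 kb of the start. Neither table gives reads or coverage, so the depth per sample is unknown.

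TTF was compared with PTC by limma 3.58.1 in R 4.3.3 (lmFit, eBayes with a variance trend) on log2(RPKM + 1), a scale that understates the change of low values, or on the fraction minus the mean of the line, in genes with a value in all 4 lines, adjusted by Benjamini-Hochberg across every gene fitted (threshold 0.05). The step was tested on simulated data, where recovery was required only at a spread between lines smaller than that fitted here. Its power at the spread of these data is not given, so a gene that was not called may still differ. With 1 library per line, the p-values and standard errors rest on the spread between 2 clones per origin. Beyond RPKM, the histone values were not scaled between libraries in the main fit. Differences in level between whole libraries, as in H3K36me3, are therefore part of that spread. eBayes moderates the spread of a gene towards that of all genes of similar level. The standard error of a gene can therefore differ from its own spread. In methylation it was 0.135 at Cldn4 and 0.128 at Cdh2, where the TTF lines had an SD of 0.447 and 0.0166. Coordinates follow the deposited tables (mm10) and equal those of GENCODE. Sequences are from RefSeq. All 10 genes and all miR-200 genes are named, and of each wider list the highest and lowest gene per assay with a value in every line and any that limma called. Other names (such as Ovol2, Fn1 and the 7 genes methylated in TTF4) were chosen after their values were seen. The genes and lists were chosen with earlier results of these data known. Alternatives changed the pseudocount, filter, normalization, variance trend, centring and treatment of missing values, and left out each line.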

Additional observations from a re-analysis of the deposited data

How the results depend on the processing

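No paired analysis was possible because the lines compared share no number (11 and 12 against 1 and 4) and the mouse behind each line is not given in the sources used here, so that PTC and TTF lines may share an animal. limma called 0 of the 10 genes in H3K4me3 and H3K36me3 under every alternative run, and 0 in methylation under all but one. The exception was the fit without TTF1, where TTF4 stands alone and the difference was 0.45 at Cldn4. The same fit changed the outcome at Mir200c and Mir141, where TTF4 was the highest line, at 0.931 and 0.908. It also did so at Cdh11 of the wider mesenchymal list, in the other direction. There TTF4 was the lowest line, at 0.00793 against 0.243 in the highest other line. Single-gene differences below the threshold changed sign with the line left out at every gene tested in the histone marks, and at some genes in methylation. In H3K4me3 the TTF minus PTC difference (log2) ran from -0.36 to 0.41 at Ocln, -0.32 to 0.32 at Epcam, -0.42 to 0.54 at Zeb1, -0.63 to 0.36 at Snai1, -0.20 to 0.30 at Cdh1 and -0.24 to 0.11 at Snai2. In H3K36me3 the TTF minus PTC difference (log2) ran from -0.89 to 0.21 at Ocln, -0.73 to 0.45 at Epcam, -0.71 to 0.39 at Zeb1, -0.76 to 0.25 at Snai1, -0.71 to 0.0802 at Cdh1, -0.55 to 0.49 at Cdh2 and -0.50 to 0.44 at Zeb2. In methylation the TTF minus PTC difference (fraction) ran from -0.37 to 0.00115 at Zeb2, -0.0346 to 0.13 at Cdh1, -0.00799 to 0.15 at Snai2, -0.18 to 0.0564 at Zeb1 and -0.21 to 0.0873 at Cdh2. It stayed above 0 at Cldn4 (0.0877 to 0.45) and Snai1 and below 0 at Vim, Ocln and Epcam, whichever line was left out. Quantile normalization turned the H3K4me3 difference to -0.0324 at Epcam, -0.0153 at Zeb1 and -0.032 at Cdh1, the H3K36me3 difference to 0.068 at Epcam, 0.19 at Cdh2 and 0.13 at Zeb2, and the methylation difference to 0.0287 at Cdh2. Without centring, the methylation difference was 0.0408 at Epcam, 0.0256 at Zeb1 and 0.0274 at Cdh2. The mean epithelial minus mesenchymal difference was 16.4 percentile points in H3K4me3, 17 in H3K36me3 and 0.606 in methylation. With 1 line left out, the same difference on log2(RPKM + 1) ran from 0.13 to 0.25 in H3K4me3 and from 0.12 to 0.22 in H3K36me3. In methylation, as a fraction, it ran from -0.0237 (without TTF4) to 0.0534. Over all genes the number called fell from 66 in H3K4me3 and 19 in H3K36me3 to 0 with a filter at 1 RPKM, without the variance trend, with quantile normalization and with missing values at 0, and rose to 102 and 44 with a pseudocount of 0.1. In methylation it went from 2 to 52 with median centring, to 0 with quantile normalization or without centring, to 1 without the trend, and to as many as 1020 without TTF1. The cause was not tested. The extension to the wider lists was chosen after seeing the data.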
